A study of Mus musculus with 20 samples.

Results

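Bone morphogenetic protein (BMP) signalling was followed in mouse dermal fibroblasts through 10 genes: the ligands Bmp2 and Bmp4, the receptors Bmpr1a and Bmpr2, the extracellular antagonists Grem1 and Nbl1, the intracellular inhibitor Smad6, and the target genes Id1, Id2 and Id3. The genes were taken as a named set, and each was read from the probe set annotated to that gene alone with the highest mean over the 20 arrays, which makes 10 genes of the 17097 measured. All mice were female, and each array held the RNA of fibroblasts from 1 mouse, with 4 groups of 5. Young ND mice (labelled ND - Young) were 4 weeks old and then ate a normal diet freely for 4 weeks. The mice of the other 3 groups were 9 months old at the start and 18 months old when killed. Old ND animals (ND - Old) ate the normal diet freely throughout, Old CR animals (ND/CR - Old) ate it for 2 months before 7 months of 30% caloric restriction, and Old CR-ND animals (CR/ND - Old) had 7 months of the restriction first and then returned to the normal diet for 2 months. Strain and genotype are not given in the sources used here.

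BMPs are secreted ligands of the TGF-beta superfamily that bring together type I receptors such as BMPR1A and type II receptors such as BMPR2. The receptors phosphorylate SMAD1, SMAD5 and SMAD8, which enter the nucleus with SMAD4 and switch on genes such as Id1, Id2 and Id3. The ID proteins lack a DNA-binding domain and block basic helix-loop-helix transcription factors by pairing with their partners. Gremlin 1 (Grem1) and DAN (Nbl1) bind the ligands outside the cell, and SMAD6 is itself induced by the pathway and inhibits it inside the cell. In skin, dermal BMPs and their antagonists are known for setting when hair follicles rest and grow.

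The fibroblasts had been sorted from digested dermis as cells positive for PDGFRA and CD34 and negative for CD45, CD117, CD24, CD31 and EpCAM. Levels are log2 array values, which ran from 2.71 to 13.46 over the table, with a median gene at 5.88 and the lower quartile at 4.54. Cd34 lay between 10.79 and 11.44 on every array, and the mean level of 10 fibroblast markers lay between 10.57 and 10.83. Pdgfra read only 5.27 to 6.54 on its probe set. Ptprc, which encodes CD45, lay between 3.13 and 3.42, near the bottom of the scale, as did Kit, which encodes CD117, between 3.28 and 3.49. Pecam1 (CD31) ranged from 5.16 to 5.79 and Epcam from 4.73 to 5.49. Cd24a, whose product CD24 the sort selected against, ranged from 4.58 to 7.40 and differed between the groups. It was 6.14 to 7.40 in Young ND, 5.19 to 5.90 in Old ND, 4.58 to 4.96 in Old CR and 5.00 to 5.96 in Old CR-ND. Against Young ND the difference was -1.17 in Old ND (adjusted p = 0.000691), -1.90 in Old CR (adjusted p = 3.76e-06) and -1.30 in Old CR-ND (adjusted p = 0.000455). Old CR lay below Old ND without overlap (-0.73, adjusted p = 0.0740), and the part of CD24-positive cells in the results was not tested. Krt5, a basal keratinocyte gene, was not at the bottom and ranged from 7.60 to 10.49. The specimen numbers in the sample titles fall into a first stretch of 13 arrays and a second of 7, called runs here, with every group in both. What these numbers mark is not given in the sources used here. After group was taken out, 17.2% of all genes differed between the runs (limma, Benjamini-Hochberg adjusted p under 0.05 over all genes, the threshold used throughout). In RNA from a pool of cells, fewer cells that express a gene and less of its RNA per cell cannot be told apart.

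With age on the normal diet, the targets Id1 and Id3 were higher, and with restriction in old mice the antagonist Grem1 was higher. Both differences with age were upward, and they were 2 of the 10 genes, where 10.9% of all genes passed in either direction and 4.45% passed upward. Against Old ND, only Grem1 of the 10 genes passed in Old CR, where 2.39% of all genes did. Grem1 also passed in Old CR against Young ND, again as 1 of the 10 genes, where 12.7% of all genes passed. A moderated F test over the 4 groups called Grem1 (adjusted p = 0.00782) and Id1 (adjusted p = 0.0333), which is 2 of the 10 genes beside 12.9% of all genes. That F count was 1 when Old ND replicate 1 or 3, Old CR replicate 2 or 4, or Young ND replicate 4 or 5 was left out, and 3 without Old ND replicate 2. The median difference over the 10 genes was 0.11 in Old ND against Young ND and 0.02 in Old CR against Old ND, with medians of 0.00 over all genes in both.

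**Figure D1:**
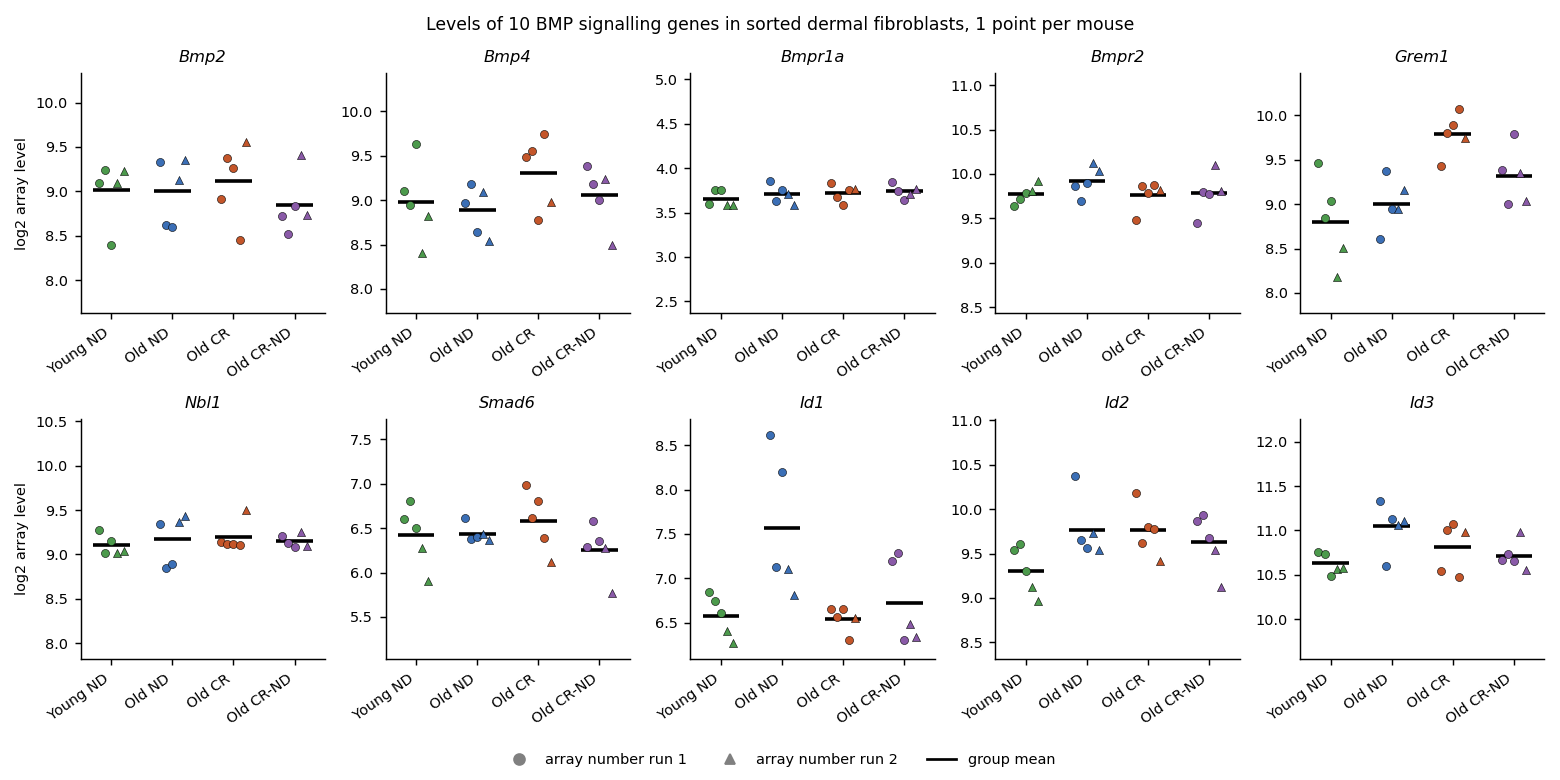
Log2 array levels (vertical axis) of the 10 BMP signalling genes in the 4 groups (horizontal axis), with 1 point per mouse, circles for the first run of arrays and triangles for the second, and a bar at each group mean. The 5 Old CR points of Grem1 lie above the 5 Old ND points, and the Old ND points of Id1 spread from 6.81 to 8.62.

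The ligands Bmp2 and Bmp4 passed in none of the 6 comparisons, in limma's fit. Bmp2 means were 9.01 ± 0.35 (SD, n = 5) in Young ND, 9.01 ± 0.37 in Old ND, 9.11 ± 0.44 in Old CR and 8.84 ± 0.34 in Old CR-ND. Single arrays ranged from 8.40 to 9.56, so the spread within each group was wider than any gap between group means. The difference of Old ND from Young ND was -0.004, with a 95% interval from -0.45 to 0.45. Bmp4 is a ligand that dermal fibroblasts are known to make. Its 5 Old CR arrays read 9.49, 9.55, 8.78, 9.75 and 8.98, and its 5 Old ND arrays 8.97, 9.18, 8.64, 9.09 and 8.54. The groups overlapped although 3 Old CR arrays lay above every Old ND array. The difference was 0.43 ± 0.22 (SE), with a 95% interval from -0.02 to 0.88 and an adjusted p of 0.380 (limma). With age on the normal diet the Bmp4 difference was -0.10, with an interval from -0.55 to 0.35.

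The receptors Bmpr1a and Bmpr2 also passed in no comparison, by the same fit. Bmpr2, the type II receptor, read between 9.45 and 10.12 over the 20 arrays. Its mean was 9.92 ± 0.16 (SD, n = 5) in Old ND and 9.77 ± 0.10, 9.77 ± 0.16 and 9.79 ± 0.23 in the Young ND, Old CR and refed groups in that order, and all 4 groups overlapped. The interval for Old ND against Young ND ran from -0.07 to 0.37 on the log2 scale, around a difference of 0.15. On the other Bmpr2 probe set, with a mean level of 8.67, the difference of Old ND from Young ND was -0.07 and did not pass. Bmpr1a, a type I receptor, read between 3.58 and 3.86 on its only probe set, below the lower quartile of gene levels. At that level the array says little about Bmpr1a, whether or not the cells express it.

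Grem1 was the antagonist that differed with diet. The Old CR arrays read 9.43, 9.80, 9.89, 10.07 and 9.75. The Old ND arrays read 8.61, 9.37, 8.95, 8.94 and 9.16, so the groups did not overlap, although the nearest arrays were only 9.43 and 9.37. Grem1 and Id1 were the 2 of 10 genes without overlap in this comparison, where 3.23% of all genes had none. Grem1 was 1.72-fold higher in Old CR, a log2 difference of 0.78 ± 0.20 (SE) with a 95% interval from 0.37 to 1.20 and an adjusted p of 0.0405 (limma). The Young ND arrays were the most spread, at 9.46, 8.84, 9.03, 8.18 and 8.51. Old CR exceeded Young ND by 0.98 ± 0.20 (adjusted p = 0.00195), or 1.98-fold, with 1 Young ND array inside the Old CR range. Old ND against Young ND gave 0.20, with an adjusted p of 0.621, and the 2 runs went opposite ways, with -0.13 (adjusted p = 0.810) in the first and 0.71 (adjusted p = 0.0293, which passed) in the second.

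After the return to the normal diet, Grem1 lay, on average, between the other old groups. The Old CR-ND arrays read 9.39, 9.00, 9.79, 9.35 and 9.03 and overlapped both the Old CR and the Old ND arrays. Their mean of 9.31 was 0.48 below Old CR (adjusted p = 0.408) and 0.31 above Old ND, and neither passed in limma. The higher level under restriction against Old ND is not firm. Without any 1 of 7 arrays (Old ND replicates 1, 3 and 4, Old CR replicates 2, 3, 4 and 5) the adjusted p lay between 0.0535 and 0.123 (limma). The call was also lost after a further quantile normalization, and with every probe set tested (adjusted p = 0.052, limma). Within the first run of arrays the difference was 0.82 (adjusted p = 0.0491), and within the second, with 1 Old CR array, it was 0.70 (adjusted p = 0.934). The difference from Young ND kept its call without any 1 array, with adjusted p from 0.000312 to 0.00785, and the runs gave 0.69 (first, adjusted p = 0.0668) and 1.41 (second, adjusted p = 0.00351). Of 7 pericyte and smooth muscle markers, 1 (Kcnj8, a potassium channel gene of pericytes) also rose under restriction, with Old CR above Old ND by 1.29 ± 0.27 (adjusted p = 0.0156). The median difference over the 7 was -0.06. The mean level of the list, with Kcnj8 in it, was 5.64 to 5.74 in Old CR and 5.36 to 5.63 in Old ND. The part of such cells in the Grem1 difference was not tested.

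The 250 bases before the Grem1 start are shown because Grem1 carried the difference with restriction, read 5′ to 3′ on the gene's strand from RefSeq (GRCm38.p6, chr2:113758649-113758898, minus strand). Capitals mark matches to GGCGCC, a GC-rich palindrome that SMAD1 and SMAD5 are known to bind, and to CCAAT, a common promoter box.
Grem1: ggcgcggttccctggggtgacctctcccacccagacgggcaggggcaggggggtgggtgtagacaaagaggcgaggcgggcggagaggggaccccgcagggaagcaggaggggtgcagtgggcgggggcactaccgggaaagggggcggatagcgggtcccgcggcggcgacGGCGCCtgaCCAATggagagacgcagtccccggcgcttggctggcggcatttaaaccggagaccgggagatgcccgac
GGCGCC lay 78 to 73 bases before the start and CCAAT 69 to 65 bases before it. The window was 72.0% G and C, against a median of 52.4% over all 32851 promoter windows of that length.

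Nbl1, the other antagonist, was flat by comparison. Its 20 arrays ranged from 8.85 to 9.43 apart from Old CR replicate 5 at 9.50, and the group means were 9.10 ± 0.11 (SD, n = 5) in Young ND, 9.18 ± 0.28 in Old ND, 9.20 ± 0.17 in Old CR and 9.15 ± 0.08 in Old CR-ND. For Old CR against Old ND the interval ran from -0.20 to 0.25. Smad6 passed in no comparison between groups. Its arrays read 6.29, 6.58, 6.36, 6.28 and 5.77 in Old CR-ND and 6.99, 6.62, 6.81, 6.39 and 6.12 in Old CR. The 2 groups overlapped, and the difference of -0.33 ± 0.17 had an interval from -0.68 to 0.02 and an adjusted p of 0.547 (limma). Smad6 was lower in the second run of arrays than in the first by -0.38 (adjusted p = 0.0105).

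Id1, the classic BMP target, showed the widest span of the 3 target genes. The Young ND arrays read 6.85, 6.75, 6.61, 6.41 and 6.27. The Old ND arrays read 8.62, 7.13, 8.20, 7.10 and 6.81, so 4 of them lay above every Young ND array and the lowest lay just inside the Young ND range. Replicates 1 and 3 stood above the other Old ND arrays by more than 1 log2 unit. Id1 was 1.99-fold higher in Old ND, a difference of 0.99 ± 0.27 (SE) with a 95% interval from 0.42 to 1.57 and an adjusted p of 0.0214 (limma). By run, the first gave 1.25 and the second 0.62. A fit of only the compared groups ended the call, and leaving out 1 array ended it in 3 cases. The 3 arrays were Old ND replicate 1, where the difference became 0.73 (adjusted p = 0.0592), Old ND replicate 3, where it became 0.84 (0.0643), and Young ND replicate 5, where it became 0.92 (0.0582).

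In restricted mice Id1 lay within the Young ND range on every array. The Old CR arrays read 6.65, 6.57, 6.65, 6.30 and 6.55, all below the lowest Old ND array. The difference from Old ND was -1.03 ± 0.27 and did not pass, with an adjusted p of 0.0518 (limma). With the run as a block it was -1.13 with an adjusted p of 0.00791, in a fit that called 2 of the 10 genes and 4.16% of all genes. It also passed without Old ND replicate 2 (adjusted p = 0.0484), 4 (0.0361) or 5 (0.0187), and the runs gave -1.44 (first) and -0.41 (second). Against Young ND the Old CR difference was -0.03, with an interval from -0.61 to 0.54. The Old CR-ND arrays split into 7.19 and 7.29 on the one hand and 6.30, 6.49 and 6.34 on the other, and their difference from Old ND was -0.85 (adjusted p = 0.770, limma).

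Immediate early genes, which respond quickly to many stimuli, were measured beside the Id genes. Of 18 such genes, 3 (Egr2, Ier3 and Nr4a2) were higher in Old ND than in Young ND, where 4.45% of all genes passed upward. Of the same 18, 1 (Egr2) was lower in Old CR than in Old ND, where 2.39% of all genes passed. The mean level of the list was 11.44 and 11.23 in Old ND replicates 1 and 3, the 2 arrays with the highest Id1. The list mean lay between 10.95 and 11.14 in the other Old ND arrays, and between 10.82 and 10.98 in Young ND. In Old CR, where Id1 read 6.30 to 6.65, the list mean lay between 10.76 and 11.20. The part of these genes in the Id1 and Id3 differences was not tested. Endothelial cells also express Id1 and Id3. The mean level of 10 endothelial markers was 4.83 to 5.19 in Old ND and 4.86 to 5.11 in Young ND. Of these markers 1 passed (Tek), higher in Old ND by 1.02 ± 0.29 (SE, adjusted p = 0.0239, limma). The median difference over the 10 was 0.03. Old ND replicate 3, with the second highest Id1, had the lowest endothelial mean of the 20 arrays. The mean of 10 keratinocyte markers was highest in Old ND replicate 1, at 7.80, and lowest in Old ND replicate 3, at 5.55, and none of the 10 passed between Old ND and Young ND in limma. The mean of 9 dermal papilla markers was also higher in the Old ND arrays with high Id1, at 5.18 and 5.41 in replicates 1 and 3 against 4.84 to 4.90 in the other 3. It was 4.74 to 4.92 in Old CR and 5.01 to 5.38 in Young ND, where Id1 was low on every array, and none of the 9 passed between Old ND and either group. The part of keratinocytes, endothelial cells and dermal papilla cells in the Id1 difference was not tested.

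Id3 was higher with age by a smaller amount. The Young ND arrays read 10.76, 10.74, 10.49, 10.57 and 10.58. The Old ND arrays read 11.33, 10.60, 11.13, 11.06 and 11.11, so replicate 2 sat among the Young ND arrays and the other 4 lay above all of them. The difference was 0.42 ± 0.13 (SE), or 1.34-fold, with an interval from 0.15 to 0.69 and an adjusted p of 0.0415 (limma). The call was lost without any 1 array other than Young ND replicate 1 or Old ND replicate 2, with adjusted p from 0.0549 to 0.114. It was also lost within each run, where the differences were 0.36 (adjusted p = 0.295) and 0.51 (adjusted p = 0.0810). Centring the arrays on their median, or fitting only the compared groups, also ended the call. The Old CR arrays read 10.54, 11.00, 11.07, 10.48 and 10.98 and overlapped both Old ND and Young ND. The Old CR-ND arrays read 10.67, 10.73, 10.65, 10.98 and 10.55, with a difference from Old ND of -0.33 (adjusted p = 0.891, limma).

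Id2 differed with age on some of its probe sets. On the brightest one, the Young ND arrays read 9.54, 9.61, 9.30, 9.12 and 8.96, and the Old ND arrays 10.37, 9.65, 9.56, 9.73 and 9.54. The groups overlapped between 9.54 and 9.61. The difference of 0.46 ± 0.18 (SE) had an adjusted p of 0.106 (limma), and with the run as a block an adjusted p of 0.0225. Both other probe sets of Id2 passed when every probe set was tested, with 0.53 (adjusted p = 0.0479) and 0.51 (adjusted p = 0.0288). Under restriction Id2 read 10.18, 9.62, 9.80, 9.78 and 9.42, with a difference from Old ND of -0.01 and an interval from -0.38 to 0.36. The Old CR-ND arrays read 9.87, 9.93, 9.68, 9.54 and 9.12.

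The windows before the Id2 and Id3 starts are shown as those of the target genes, for which the table held entries, read as above (Id2 at chr12:25096093-25096342, minus strand, and Id3 at chr4:136143572-136143821, plus strand, GRCm38.p6, RefSeq). Capitals mark GGCGCC and CCAAT as above and TGACG, the core of the binding site of CREB family factors, and ATTGG and CGTCA are CCAAT and TGACG on the other strand.
Id2: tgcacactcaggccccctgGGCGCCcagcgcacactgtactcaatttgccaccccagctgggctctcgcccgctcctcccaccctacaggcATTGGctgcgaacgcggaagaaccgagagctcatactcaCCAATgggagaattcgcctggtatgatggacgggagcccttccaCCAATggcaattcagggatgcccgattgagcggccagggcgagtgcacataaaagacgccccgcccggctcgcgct
Id3: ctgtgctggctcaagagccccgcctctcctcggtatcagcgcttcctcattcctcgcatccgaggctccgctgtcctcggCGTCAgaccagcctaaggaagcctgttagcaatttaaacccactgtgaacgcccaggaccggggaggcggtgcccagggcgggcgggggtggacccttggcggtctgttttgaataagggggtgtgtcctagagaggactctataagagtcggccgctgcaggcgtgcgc
Id2 held GGCGCC from 231 to 226 bases before its start and CCAAT at 3 places, and Id3 held TGACG from 170 to 166 bases before its start. Promoter windows matched 8 of the 10 genes. On both strands, GGCGCC was in 5 of the 8 (Bmpr1a, Bmpr2, Grem1, Nbl1 and Id2) and in 9.59% of all windows. CCAAT was in 3 (Bmpr1a, Grem1 and Id2) and in 33.8% of all, TGACG in 2 (Nbl1 and Id3) and in 17.8%, and TATAAA in 0 and in 12.4%. The 4 motifs do not overlap one another in the windows shown, and a match describes letters only. The windows of the 8 genes were 62.8% to 78.8% G and C, all above the median window.

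**Figure D2:**
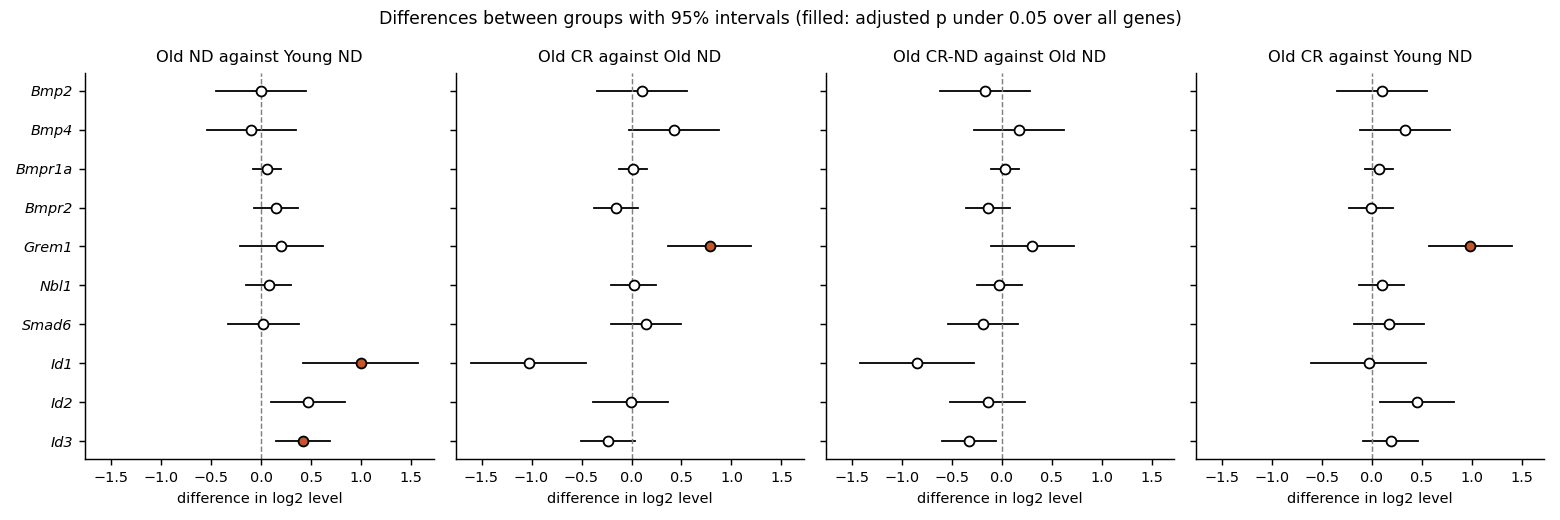
Differences in log2 level (horizontal axis) for the 10 genes (vertical axis) in the comparisons named above each panel, with 95% intervals, filled where the adjusted p over all genes was under 0.05. Id1 and Id3 are filled for Old ND against Young ND, and Grem1 for Old CR against Old ND and against Young ND.

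The return to the normal diet gave no call among the 10 genes in any of its 3 comparisons (limma). Old CR-ND against Old ND called 0 of 10 genes, where 0.00585% of all genes passed, and 2 of the 10 (Id1 and Id3) had an unadjusted p under 0.05, as did 5.08% of all genes. Old CR-ND against Old CR called 0 of 10 beside 0.333% of all genes, with 1 of the 10 (Grem1) under 0.05 unadjusted beside 9.79% of all. Old CR-ND against Young ND called 0 of 10 beside 7.04% of all genes, with 1 of the 10 (Grem1, a difference of 0.51) under 0.05 unadjusted beside 19.2% of all. The 3 comparisons share their Old CR-ND arrays.

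The rest of the pathway was followed through a list of 53 further ligands, receptors, antagonists, SMAD proteins and targets, 46 of which had a named probe set. In Old ND against Young ND, 5 of the 46 were higher and 2 lower, beside 10.9% of all genes that passed. Among 10 ligands 1 fell (Bmp7), and among 9 receptors and co-receptors 2 rose (Acvr2b and Rgmb). Among 15 antagonists and modulators 1 rose (Bambi) and 1 fell (Fstl1). None of 7 genes for SMAD proteins and their ubiquitin ligases passed, and 2 of 5 targets rose (Id4 and Hey1). In Old CR against Old ND 1 of the 46 passed (Bmp7, higher), beside 2.39% of all genes. In Old CR against Young ND 2 passed (Fst and Bambi, higher), beside 12.7% of all genes. In Old CR-ND against Young ND 3 passed (Rgmb and Bambi higher, Bmp7 lower), beside 7.04% of all genes. Old CR-ND called 0 of the 46 against Old ND and 0 against Old CR in limma, beside 0.00585% and 0.333% of all genes. At an unadjusted p under 0.05 the counts were 3 and 4 of the 46, beside 5.08% and 9.79% of all genes.

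Bmp7 was the ligand that moved with both age and diet. Its Young ND arrays read 8.62, 9.43, 9.00, 8.75 and 8.94. The Old ND arrays read 8.01, 8.32, 8.05, 7.74 and 8.04, all below the lowest Young ND array. The level fell with age by 0.92 ± 0.15 (SE) on the log2 scale (adjusted p = 0.000318, limma). The Old CR arrays, at 8.70, 8.89, 8.88, 8.59 and 8.43, all lay above the highest Old ND array. Old CR exceeded Old ND by 0.67 ± 0.15 (adjusted p = 0.0223), a call lost without Old ND replicate 1 (0.0504) or Old CR replicate 2 (0.0638) or 3 (0.0652), within either run, and when its probe sets were averaged, where the difference was 0.43 (adjusted p = 0.110). After the return to the normal diet the arrays read 8.53, 7.86, 8.19, 8.16 and 7.76, below Young ND by -0.85 (adjusted p = 0.00119), and their difference from Old CR of -0.60 did not pass (adjusted p = 0.0947).

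Bambi, Rgmb, Acvr2b, Hey1 and Id4 were the further pathway genes that rose with age. Bambi, a pseudoreceptor that lacks the kinase domain, had means of 6.40 ± 0.12 (SD, n = 5) in Young ND, 7.23 ± 0.43 in Old ND, 7.25 ± 0.35 in Old CR and 6.97 ± 0.16 in Old CR-ND. It rose with age by 0.82 ± 0.17 (SE, adjusted p = 0.00271, limma), and every Young ND array lay below every array of the old groups. Within the first run of arrays the difference with age was 0.65 (adjusted p = 0.0977). Its call in Old CR-ND against Young ND (0.57, with an adjusted p just under the threshold) was lost without any 1 of the 10 arrays, within either run and with every probe set tested (adjusted p from 0.0539 to 0.189). Centring the arrays on their median ended that call too. Rgmb, a BMP co-receptor, rose by 0.77 ± 0.17 (adjusted p = 0.00467), with arrays from 7.38 to 8.17 in Young ND and from 8.31 to 9.03 in Old ND, and its difference within the first run was 0.65 (adjusted p = 0.0508). Hey1, a transcriptional repressor of the HES family, rose by 0.75 ± 0.17 (adjusted p = 0.00613). Its Young ND arrays lay between 7.54 and 7.81 and its Old ND arrays between 7.95 and 8.77, with a difference of 0.52 (adjusted p = 0.125) within the second run. In Old CR, Hey1 read 7.30 to 8.09, -0.65 from Old ND, and the adjusted p of 0.0527 did not pass, whereas with the run as a block it was 0.0115. Id4, the remaining Id gene, rose by 0.41 ± 0.12 (adjusted p = 0.0283), a call lost without Old ND replicate 1 or Young ND replicate 3, 4 or 5. The Id4 call was also lost within either run and with only the compared groups in the fit. Acvr2b, an activin and BMP type II receptor, rose by 0.39 ± 0.12 (adjusted p = 0.0373), a call lost without any 1 of 8 arrays, that is all but Old ND replicate 5 and Young ND replicate 4. Its call was also lost with arrays centred on their median and with only the compared groups in the fit. Within the second run the difference was 0.325 and the call was lost too. Fst, which encodes the activin and BMP binder follistatin, was higher in Old CR than in Young ND by 0.74 ± 0.17 (adjusted p = 0.00626), and by 0.64 (adjusted p = 0.0573) within the first run. Fstl1, a follistatin-like secreted protein, fell with age by 0.20 ± 0.06 (adjusted p = 0.0220, limma). The Fstl1 call was lost without Old ND replicate 1 or 3 or Young ND replicate 4. It was also lost within either run and with only the compared groups in the fit.

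**Figure D3:**
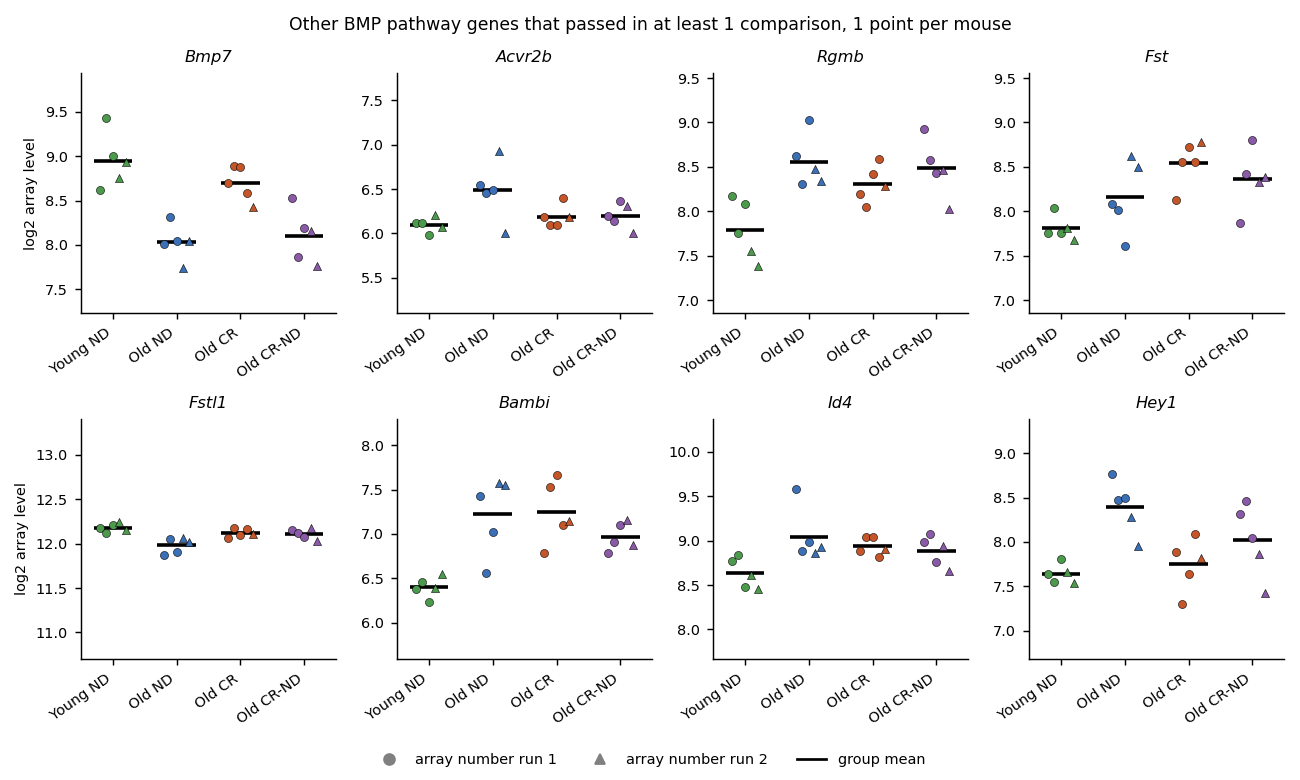
Log2 array levels (vertical axis) of the further BMP pathway genes that passed in at least 1 comparison, by group (horizontal axis), with 1 point per mouse, circles and triangles for the first and second run of arrays, and a bar at each group mean. Bmp7 lies lowest in Old ND and Old CR-ND, and the Young ND points of Bambi lie below all others.

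Within groups, mice with more Id2 also had more Smad6. The deviations of the 20 arrays from their group means gave Pearson's r = 0.83 and Spearman's rho = 0.86 (adjusted permutation p of r = 0.0003, 100000 permutations, 10 pairs). Without the 2 arrays farthest from the median of Id2, r was 0.89. With run means also removed r was 0.69 (adjusted permutation p = 0.0210), and within the first run 0.66 (adjusted permutation p = 0.0785). Id1 with Id2 gave r = 0.64 and rho = 0.57 (adjusted permutation p = 0.00677), and r = 0.68 without the 2 farthest arrays. Id1 with Smad6 gave r = 0.44 and rho = 0.58 (adjusted permutation p = 0.00677), and r = 0.58 without the 2 farthest arrays. With run means removed neither pair passed, with r = 0.42 (adjusted permutation p = 0.500) and r = 0.08 (adjusted permutation p = 0.812). Id1, Id2 and Smad6 were each lower in the second run than in the first, by -0.53 (adjusted p = 0.0391), -0.40 (adjusted p = 0.0110) and -0.38 (adjusted p = 0.0105) in limma, and Bmpr2 was higher by 0.20 (adjusted p = 0.0436).

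For Grem1 and Id1 the value depended on how the runs were treated. Pooled, their deviations gave r = -0.24 and rho = -0.26 (adjusted permutation p = 0.584). With run means removed, r was -0.61 (adjusted permutation p = 0.0352) and rho -0.58 (adjusted permutation p = 0.173). Within the first run r was -0.73 (adjusted permutation p = 0.0785). Id1 with Id3 gave r = 0.40 and rho = 0.41 (adjusted permutation p = 0.380), and 0.58 (adjusted permutation p = 0.0226) with run means removed. The other 5 pairs, which are Id2 with Id3, Id3 with Smad6, and Id1 with each of Bmp2, Bmp4 and Nbl1, did not pass in any of these settings. The second run, with 7 arrays in 4 groups, was too small to give its own value.

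**Figure D4:**
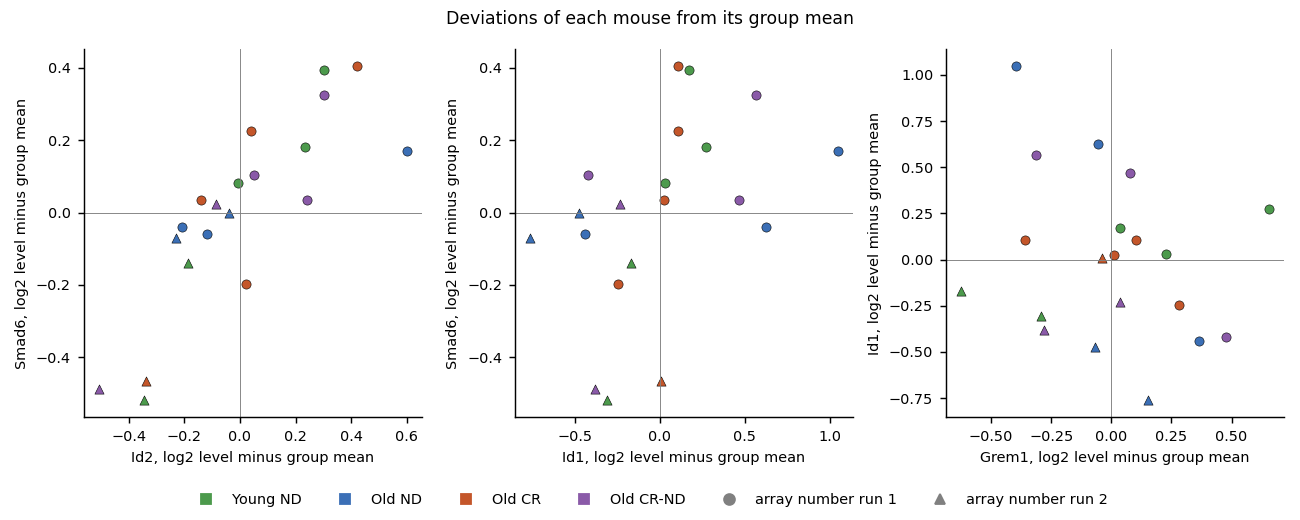
Log2 level of each mouse minus its group mean for Id2 and Smad6, Id1 and Smad6, and Grem1 and Id1 (first gene on the horizontal axis), coloured by group, with circles and triangles for the first and second run of arrays. Id2 and Smad6 lie along a line, while Grem1 and Id1 give a pooled r of -0.24.

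Over all 20 arrays, the genes whose levels followed each called gene most closely were listed by Pearson's r, with groups and runs left in. For Id1 these were Itga8 (r = 0.94), 2010109A12Rik (0.92) and Gli1 (0.92), which encodes the transcription factor and target of hedgehog signalling. For Id3 they were Nr4a1 (0.93), Pigf (0.89) and Nr4a2 (0.88), where Nr4a1 and Nr4a2 are immediate early nuclear receptors. For Grem1 they were Hpcal1 (0.89), Vps39 (0.88) and Macroh2a2 (0.87). Each was picked as the highest among all other genes measured, so the values only describe these arrays.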

How the data were processed

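RNA from sorted dermal fibroblasts of 20 female mice was amplified and hybridised to Affymetrix arrays, 1 mouse per array and 5 per group. The deposited table holds log2 values that, per the submitters' processing notes, were made with RMA in the affy package; versions and settings are not given in the sources used here. RMA removes background, equalises distributions between arrays and shrinks differences of dim probe sets. Precision is limited by the number of arrays, and array medians lay between 5.27 and 5.34. Of 45141 probe sets, 28898 had 1 gene symbol, 551 several and 15692 none, and current symbols were found for 28689. Each gene was read from its brightest probe set, by the mean of the 20 arrays, which gave 17097 genes. All 20 arrays entered 1 linear model with 4 groups (limma 3.58.1, R 4.3.3; moderated tests, 16 residual and 4.19 prior degrees of freedom) with 6 comparisons and an F test, all adjusted by the Benjamini-Hochberg method over all genes at 0.05. No 2 arrays held identical values. The model was tested on simulated data.

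Named in the text are the 10 genes, the further pathway genes that passed in a comparison, and the 3 genes most correlated with each called gene. The genes, pathway and marker lists were chosen with earlier results of these data known. The labels give no replicate numbers; replicates were numbered in accession order. Array runs come from the specimen numbers in the sample titles. No label names an array batch, and what sets the runs apart is not given in the sources used here. Correlations used permutation of deviations within groups (two-sided). Alternatives covered filters on dim genes, the choice of probe set, scaling, array weights, the run, the groups fitted, the threshold, and leaving out each array.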

Additional observations from a re-analysis of the deposited data

Results flagged for a closer look

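In 5 of the 40 sets of 5 arrays (10 genes in 4 groups), 1 array stood apart from the rest, with a gap to its nearest neighbour that was more than 0.71 of the group's range; chance alone gives about 1 in 20 such sets. Bmp2 in Young ND replicate 3 read 8.40, with the next array at 9.09 (gap of 0.821 of the range). Bmpr2 in Old CR replicate 1 read 9.48, with the next at 9.79 (0.775). Nbl1 in Old CR replicate 5 read 9.50, with the next at 9.14 (0.923). Id1 in Old CR replicate 4 read 6.30, with the next at 6.55 (0.714). Id2 in Old ND replicate 1 read 10.37, with the next at 9.73 (0.771).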

How the results depend on the processing

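No paired analysis was possible because the labels give no replicate numbers that the groups share. On each collection day 3 mice from different groups were taken, per the series' design text, but no label ties a mouse to a day, so the day could not be used as a block. Over the 10 genes and all comparisons, 0 differences among those called changed direction under any alternative. In total 30 calls were lost and 18 gained, and 1380 values kept their side of the threshold, nearly all of them never called. The losses fell on the called differences, with 24 alternatives each. With age, Id1 kept its call in 19 and Id3 in 11 of the 24. Grem1 in Old CR kept its call in 13 against Old ND and in 23 against Young ND. For Old ND against Young ND, 2 of the 10 genes passed (0 to 2 without 1 array); the count was 1 with arrays centred on their median, 0 with only the compared groups in the fit, 1 within the first run and 0 at a threshold of 0.01, and rose to 3, with Id2 added, when probe sets were averaged, with quantile normalization and with the run as a block. For Old CR against Old ND, 1 passed (0 to 2 without 1 array). The count was 2 with either filter on dim genes, when probe sets were averaged per gene, with array weights, with the run as a block, within the first run and at a threshold of 0.1. It was 0 with every probe set tested and at 0.01. With quantile normalization it stayed at 1, but Id1 passed in place of Grem1. For Old CR against Young ND, 1 passed (1 to 1 without 1 array), 2 with the mean of probe sets and 0 within the first run. For Old CR-ND against Young ND, 0 passed (0 to 1 without 1 array) and 1 within the second run; its counts against Old ND and Old CR were 0 in every setting. The F test's 2 (1 to 3 without 1 array) became 1 in some settings, among them the first run alone and a threshold of 0.01. Over the 13 settings other than leaving out 1 array, the count lay between 1 and 3.

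Of the 46 further pathway genes, 7 passed with age (5 to 9 without 1 array), and 4 with only the compared groups, within the second run or at 0.01; it was 8 with averaged probe sets or the block and 10 at 0.1. For Old CR against Old ND the count of 1 (0 to 3 without 1 array) was 2 with either filter, the mean of probe sets, quantile normalization, weights, the block or 0.1, 4 in the first run alone, and 0 in the second alone or at 0.01. For Old CR-ND against Old CR 0 (0 to 1) became 1 with weights or at 0.1. For Old CR against Young ND 2 (2 to 3) became 4 with quantile normalization, only the compared groups or the block, 5 with weights or at 0.1, and 1 within the first run. For Old CR-ND against Young ND 3 (2 to 3) became 5 with either filter, quantile normalization or weights, 6 with the block or at 0.1, and 1 within the first run or at 0.01. Of the 10 correlated pairs, 3 passed, 2 with the mean of probe sets and 0 within the first run, a setting chosen after seeing the data. Bmpr1a was too dim for either filter. The median SE over all genes was 0.10, and the causes of these shifts were not tested.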

Other observations

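Marker genes of cell types other than the sorted fibroblasts were tested in the same fit (limma); Cd24a is given above. In Old ND against Young ND, where 10.9% of all genes passed, 2 of 7 pericyte and smooth muscle genes passed in opposite directions. Kcnj8 was higher and Des lower. Csf1r of 10 immune genes passed as lower and Mitf of 7 melanocyte genes as higher. None of 5 adipocyte, 4 Schwann or 9 dermal papilla genes passed. Cd34, Col1a1 and Col3a1 of 10 fibroblast genes passed as lower with age. In Old CR against Young ND, where 12.7% of all genes passed, 3 dermal papilla genes were lower (Sox18, Crabp1 and Vcan). The mean level of the 9 dermal papilla genes was 4.74 to 4.92 in Old CR and 5.01 to 5.38 in Young ND. Other lists passed there too. Tek (endothelial), Kcnj8 and Mitf were higher, and Col1a1, Col3a1 and Thy1 of the fibroblast list were lower. Csf1r and Cd68 of the immune list passed in opposite directions. The keratinocyte list passed for none of its 10 genes in any of the 6 comparisons, with array means from 5.55 to 7.80.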
